A study of Mus musculus with 4 samples.

Results

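The 81 genes described here encode the proteins of the cytosolic ribosome. They were chosen by name, as every gene of the deposited tables called Rpl or Rps with a number and at most 1 closing letter a, x or l, with Rplp0, Rplp1, Rplp2 and Rpsa added, and they are 81 of 22072 genes. Of these, 49 belong to the large subunit and 32 to the small subunit. RNA was sequenced from the mesenchyme of molar tooth germs of mouse embryos on a mixed background at embryonic day 14. The 4 groups were control upper molar and control lower molar, both Msx1+/-, and mutant upper molar and mutant lower molar, both Msx1-/-, with 1 library in each group. All 4 groups therefore carried at least 1 mutant Msx1 allele per the sample labels, although the series title speaks of wild type, and neither names the allele nor says whether both jaws came from the same embryos. Mesenchyme was captured by laser from frozen head sections, and material of 3 pairs was pooled, so each library is 1 pool with no replicate and no difference below has a replicate check.

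The cytosolic ribosome translates nuclear messenger RNA. Its small subunit reads the message and its large subunit joins amino acids, and most ribosomal proteins are built into it in equal amounts, so the genes are strongly expressed in a growing tissue. Their messenger RNAs usually begin at a C within a run of pyrimidines, a feature through which mTOR signalling adjusts their translation. In the tooth germ at this age the mesenchyme condenses under the epithelial cap and divides, and Msx1 encodes a homeodomain transcription factor of that mesenchyme.

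The start sites of the genes show the run of pyrimidines directly, so a few are given for members on which the comparisons below turn. The sequences are RefSeq's for build GRCm38.p6, from 20 bases before to 10 bases from the annotated start, read 5′ to 3′ on the gene's strand, with the run of pyrimidines in capitals. Rps6 lies on the minus strand at chr4:86857358-86857387, Rplp2 on the plus strand at chr7:141447631-141447660, Rps26 on the minus strand at chr10:128626497-128626526, Rps23 on the plus strand at chr13:90923102-90923131, Rps27l on the plus strand at chr9:66946066-66946095 and Rpl34 on the minus strand at chr3:130730389-130730418.
Rps6: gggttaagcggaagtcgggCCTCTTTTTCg
Rplp2: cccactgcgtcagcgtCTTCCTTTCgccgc
Rps26: agcgggtcgggcaagccgccggatCCTCTT
Rps23: acggggccttcggctgggcggggCTTCCCg
Rps27l: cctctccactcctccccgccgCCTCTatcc
Rpl34: cgcgccgccttccctgacgtaCTTCCTgtc
In these 6 sequences a C followed by at least 4 more pyrimidines lay within 5 bases of the annotated start.

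The annotated start of other members carried no such run in that window. Rplp0 on the plus strand at chr5:115559447-115559476, Rpsa on the plus strand at chr9:120127746-120127775 and Rpl26 on the plus strand at chr11:68901546-68901575 are shown because the first pair was higher in mutants in each jaw and Rpl26 varied most of all members.
Rplp0: acgtcgtcttcgggtttcgaggaccgcctg
Rpsa: tggctgtgggttatttaaggacgtcatttc
Rpl26: gagatctcgcggcaacttacagaaccggaa
A run was present in 27 of the 56 analysed members with a RefSeq promoter entry (48.2%), beside 21.2% of all 27025 genes with an entry. A missing run says only that these letters were not in this window of the annotated start, and RefSeq starts can differ from those used in the tissue.

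Expression is given as FPKM, fragments per kilobase of transcript scaled to the library's mapped fragments, which can be compared between genes because it is per length. Values for the 4 libraries stand in a fixed order throughout, which is first the upper and lower molar of controls, then the upper and lower molar of mutants. Differences are on the log2(FPKM + 1) scale, as mutant minus control for genotype and upper minus lower for jaw, and a gene was counted as higher or lower where its difference was at least 1 in size. Values, differences and orders of libraries are on the deposited scale unless a rescaling is named. Rescaling the libraries in 3 ways, by median of ratios, to a common upper quartile or to a common FPKM total, adds 0.42 to 0.52 to each abundant gene's lower molar genotype difference, 0.01 to 0.10 to the upper molar one, 0.07 to 0.13 to the control jaw difference and -0.35 to -0.28 to the mutant jaw difference. The sign of a lower molar genotype difference or mutant jaw difference smaller than that therefore depends on the scale. The summed coverage of the libraries was 410, 324, 395 and 264 megabases, so the mutant lower molar library was the shallowest, and 10061 to 10562 genes reached 1 FPKM in a library. Msx1 stood at 170, 184, 126 and 85.9 FPKM, and since the allele is not named this level checks no genotype label. Of 22072 genes, 10535 had a mean of at least 1 FPKM and a sound estimate, and 76 of the 81 ribosomal protein genes were among them.

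The ribosomal protein genes took a large part of the summed FPKM in every library. Their summed FPKM, over 80 members without Rps27, was 38351, 49846, 41714 and 39461. As a share of the FPKM of all genes this was 20.8%, 24.6%, 23.8% and 27.3%. The share was thus higher in the mutant than in the control library of each jaw and higher in the lower than in the upper molar of each genotype, while the sum itself was highest in control lower molar. In lower molars the sum was lower in the mutant and the share was higher, because the summed FPKM of all genes also differed, at 184756, 202789, 175556 and 144435. Adding Rps27, whose estimate failed in control lower molar, gave shares of 21.5%, 25.6%, 24.7% and 28.5%. None of these is a share of reads, because FPKM is per length and short transcripts weigh more in its sum.

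**Figure D1:**
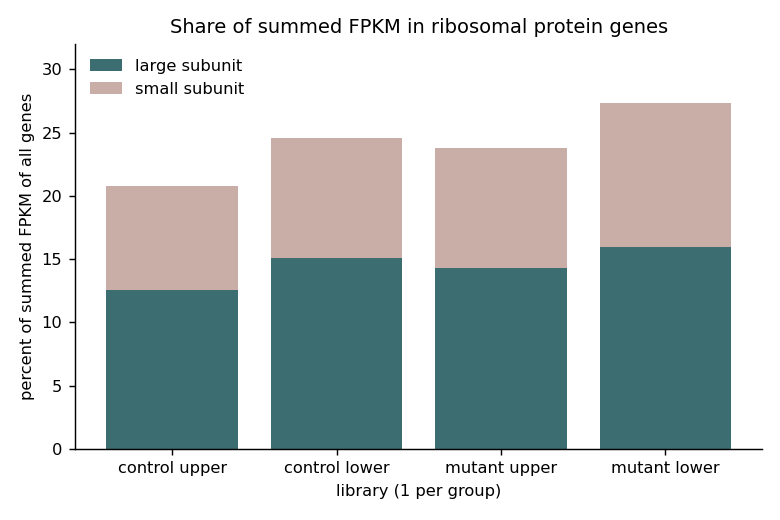
Share of the FPKM of all genes taken by the large and small subunit genes in each of the 4 libraries, as stacked bars from 0. The total rises from 20.8% in control upper to 27.3% in mutant lower molar, and each mutant bar is taller than the control bar of its jaw.

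Both subunits showed this order. Large subunit genes took 12.6%, 15.1%, 14.3% and 15.9% of FPKM. Small subunit genes took 8.18%, 9.49%, 9.45% and 11.4%. The large subunit sum was 1.54, 1.59, 1.51 and 1.399 times the small subunit sum, so the ratio was lowest in mutant lower molar.

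The middle member stood about 100-fold above the middle gene. Median FPKM of the 76 members was 454, 584, 475 and 444. The median over all 10535 genes was 5.42, 5.60, 5.07 and 3.94, which makes the members' median 83.9, 104, 93.7 and 113 times the median gene. By mean FPKM, 61 of the 100 most abundant genes were members, and 70 of the 76 members had a mean of at least 100 FPKM, a level that 217 genes reached.

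Rpl41, a very short basic protein that lies between the subunits, was the most abundant of the 10535 genes (3473, 4790.3, 3568 and 3076 FPKM; chromosome 10, 127985166 to 127986224 in build mm9). Its level was highest in control lower molar, as was that of 64 of the 76 members, a count that was 14 to 23 under the 3 rescalings, where mutant lower molar was the highest library of 50 to 55 members. The next members were Rps29, a zinc-binding protein of the small subunit, with 1133, 1432, 1239 and 1369 FPKM and the stalk protein Rplp1 with 1016, 1520.3, 1296 and 966 FPKM. Rpl23a, which sits at the exit tunnel of the large subunit, had 995, 1421, 1156 and 988 FPKM. Rpl13, whose human counterpart is mutated in a bone growth disorder, had 928, 1436, 1185 and 914 FPKM. Rps27 would rank among these, with 1675, 2779, 2126 and 2369.5 FPKM, but its failed estimate kept it out of every comparison.

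The least abundant of the 76 members were Rpl26, Rpl34, Rps27l, Rps15a and Rpl22. Rpl26, a protein near the exit tunnel that can also bind the messenger RNA of p53, had 5.70, 11.96, 25.4 and 9.76 FPKM (chromosome 11, 68715068 to 68718036 in build mm9). The mean read depth behind these values was 5.96, 9.71, 27.6 and 9.01 per base, far below that of the typical member. Rpl34 had 29.1, 39.3, 23.0 and 17.1 FPKM (chromosome 3, 130429749 to 130433226 in build mm9). It was lower in the mutant library of each jaw. Rps27l, the relative of Rps27 whose transcription p53 can induce, had 58.6, 66.0, 45.6 and 35.5 FPKM, which is the same order of libraries. Rps15a, a small subunit protein, had 60.1, 85.6, 78.0 and 82.8 FPKM and Rpl22, an RNA-binding protein needed for some T cells, had 70.7, 109, 83.3 and 87.5 FPKM.

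The 5 members outside the comparisons were Rps27 and 4 genes under the level minimum. Rpl39l, a relative of Rpl39 known from the testis, was listed at 0, 0.136, 0 and 0.138 FPKM beside 571, 638, 593 and 534 FPKM for Rpl39. Rpl3l, a relative of Rpl3 known from muscle, was listed at 0 in every library, beside 255.2, 344, 284 and 272 FPKM for Rpl3. Rpl10l, a relative of Rpl10 known from male germ cells, was also listed at 0, beside 583, 718, 624 and 429 FPKM for Rpl10. Of the 4 members named as relatives with a closing l, Rps27l alone reached the level minimum in this mesenchyme.

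**Figure D2:**
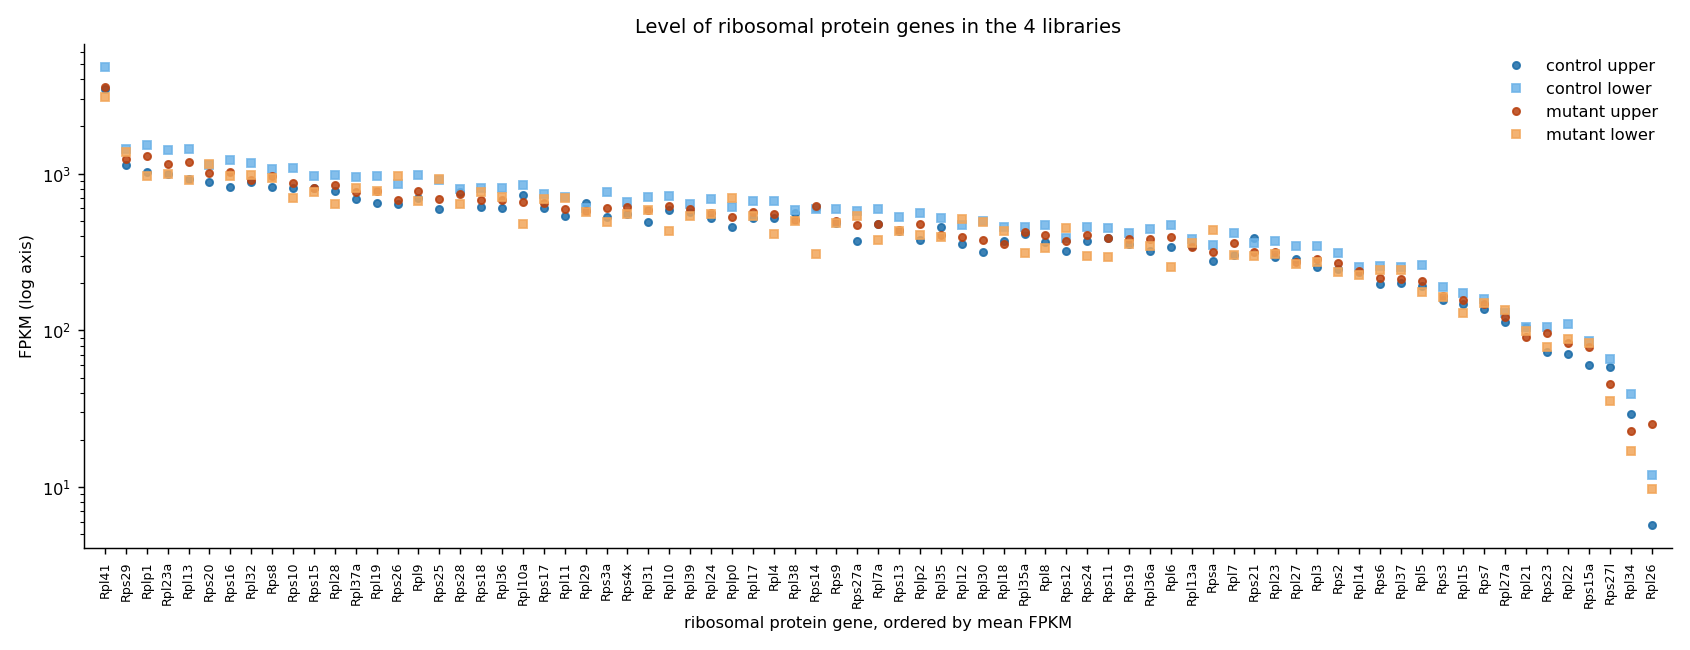
FPKM of 75 analysed ribosomal protein genes in the 4 libraries on a log axis, ordered by mean level, with circles for upper and squares for lower molars. Most members lie within a narrow band between 100 and 1520.3 FPKM, and Rpl41 stands above it. By mean level Rpl26, Rpl34, Rps27l, Rps15a, Rpl22 and Rps23 lie below it, Rpl26 and Rpl34 lowest. The 4 points of most members lie close together, less so for Rpl26, Rpl34 and Rps14. The other analysed member is not drawn.

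Most members varied little between the libraries. The ratio of a member's highest to its lowest FPKM was under 2 for 73 of 76 members (96.1%), beside 70.2% of all genes and 69.4% of the other 147 genes that averaged 100 FPKM or more. Its median was 1.39 for members, 1.67 for all genes and 1.66 for those other abundant genes. Under the 3 rescalings the ratio was under 2 for 70 to 75 members, 79.4% to 79.7% of all genes and 86.4% to 87.1% of the other abundant genes, with medians of 1.35 to 1.43, 1.505 to 1.507 and 1.48 to 1.52. The exceptions as deposited were Rpl26 with 4.46, Rpl34 with 2.30 and Rps14 with 2.01. The order of the members was also alike in all libraries, with Spearman's rho of 0.921 to 0.992 over the 6 pairs of libraries, given as a description since all members share each library's depth and handling.

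The first comparison asked how the members differed between mutant and control upper molars. Most were slightly higher in the mutant, and only Rpl26 passed the fold rule. The median difference of the 76 members was 0.12, with the middle 50% of them between 0.04 and 0.21, while the median of all genes was -0.03. Of the members, 66 lay above the median of all genes and 62 above 0, a sign that 45.8% of all genes had. By the fold rule 1 member was higher, where 1.07% of all genes were, and 0 were lower, where 3.27% of all genes were. The differences were small and close together, with 64 of 76 members within 0.25 of their median. Leaving out Rpl26 left the median at 0.12.

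Rpl26 was 1.98 higher in the mutant upper molar on the log2 scale. At the FPKM values given above, the mutant upper library stood alone and the other 3 lay between 5.70 and 11.96. Next came Rps23, a protein of the decoding centre, with 73.0, 105, 96.3 and 78.6 FPKM, an upper molar difference of 0.40. Control lower molar was its highest library and control upper molar its lowest on the deposited scale.

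At the other end, Rps27l had an upper molar difference of -0.36 and Rpl34 one of -0.33. Rps21, a small subunit protein, had 389, 361, 318 and 300.1 FPKM and an upper molar difference of -0.29. As deposited each of these 3 was lower in the mutant of both jaws, but the lower molar difference of Rps21, -0.27, became 0.16 to 0.25 under the 3 rescalings.

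In lower molars the members were mostly lower in the mutant on the deposited scale, but so were most genes, and the direction reversed under each of the 3 rescalings of the libraries, where the median was 0.11 to 0.21. The median difference as deposited was -0.31, with the middle 50% between -0.53 and -0.09, beside -0.39 for all genes. Relative to the median of all genes it was 0.08, a value that became -0.085 with a pseudocount of 5 and -0.25 with no level minimum. Of the 76 members, 8 lay above 0, where 17.6% of all genes did, and 47 lay above the median of all genes. By the fold rule 0 members were higher, where 0.864% of all genes were, and 1 was lower, where 9.42% of all genes were.

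The member counted as lower was Rpl34, with a lower molar difference of -1.16. Under the 3 rescalings that difference was between -0.75 and -0.66, so the sign held and the fold rule was no longer met. Rps14, a small subunit protein whose loss is known from a human anaemia, had 602, 599, 620.5 and 308 FPKM and a lower molar difference of -0.96. The mutant lower molar library stood at about 50% of the other libraries, which lay close together. Rpl6, a large subunit protein, had 339, 469, 397 and 254.8 FPKM, a lower molar difference of -0.88. Its mutant lower molar value was likewise the lowest of the 4.

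The 8 members above 0 in lower molars as deposited became 52 to 56 of 76 under the 3 rescalings, and 3 of them are given here. Rpsa, the small subunit protein first described as a laminin receptor, had 276, 351, 318 and 439 FPKM, a difference of 0.32 in lower and 0.20 in upper molars (chromosome 9, 120036884 to 120041487 in build mm9). Rps12 of the small subunit had 322, 391, 369 and 450.4 FPKM, a difference of 0.20 in each jaw. Rplp0, the base of the stalk that recruits translation factors, had 455, 613, 532 and 697 FPKM, a difference of 0.19 in lower and 0.22 in upper molars (chromosome 5, 116009476 to 116013738 in build mm9). In all 3 genes the mutant lower molar library was the highest and the control upper molar library the lowest.

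**Figure D3:**
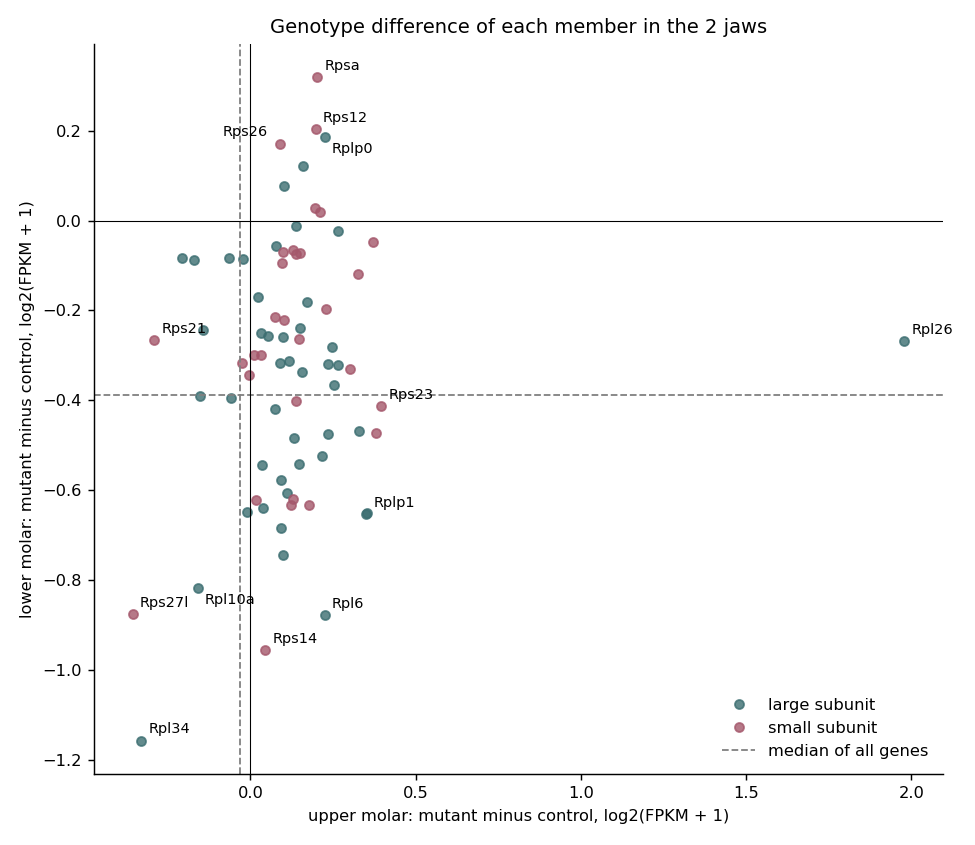
Genotype difference, mutant minus control on the log2(FPKM + 1) scale, of each of the 76 analysed members in upper molars (horizontal) and lower molars (vertical), coloured by subunit, with dashed lines at the medians of all genes (-0.03 and -0.39). Most points lie right of 0 and below 0, with Rpl26 far to the right at 1.98 and Rpl34 lowest at -1.16.

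Over both jaws, no member passed the fold rule in the same direction. The counts of 0 higher and 0 lower stand beside 0.399% and 1.59% of all genes. On the deposited scale 54 of 76 members were higher in the mutant upper and lower in the mutant lower molar, 8 were higher in both and 14 lower in both. Of all 10535 genes, 3447, 1378 and 5238 showed these 3 patterns. Relative to the median of all genes, 42 members were above it in both jaws, where 32.4% of all genes were, and 5 were below it in both, where also 32.4% were. The first count was 23 with a pseudocount of 5 and 46 with 0.1, 46 to 49 under the 3 rescalings and 10 of 80 with no level minimum. In upper molars alone, 64 to 66 of 76 members were above the median of all genes with either pseudocount and under the rescalings, and 63 of 80 with no level minimum.

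As deposited, the genotype difference was larger in upper than in lower molars for 70 of the 76 members (92.1%) and 80.1% of all genes. The median of upper minus lower was 0.41 for members and 0.34 for all genes. Under the 3 rescalings 38 of 76 members had the larger difference in upper molars, and the members' median was 0.13, 0.22 and 0.19 in upper molars and 0.11, 0.21 and 0.18 in lower molars, so the gap between jaws was 0.012 to 0.019. It reached 1 for 4 members, Rpl26 at 2.25, Rpl6 at 1.102, Rplp1 at 1.004 and Rpl13 at 1.004, where 5.58% of all genes did. Under the rescalings Rpl26 alone passed, at 1.86, where 1.58% to 1.59% of all genes did. Rpl6 was then at 0.69 and Rplp1 and Rpl13 were each at 0.59. No member reached -1 as deposited, where 1.31% of all genes did. These differences between jaws were not tested, since each rests on 4 single libraries.

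The other comparison set upper against lower molars within a genotype, with the same 4 libraries. In controls nearly all members were lower in the upper molar. The median difference was -0.35, with the middle 50% between -0.46 and -0.26, beside -0.08 for all genes. Of the 76 members, 3 lay above 0, where 37.3% of all genes did, and 6 lay above the median of all genes. By the fold rule 0 members were higher, where 1.48% of all genes were, and 0 were lower, where 0.218% were. The 3 members above 0 were Rps21 at 0.11, Rpl29 at 0.10 and Rps14 at 0.01. Rpl29, a small basic protein of the large subunit, had 649, 605, 576 and 569 FPKM. Its highest value was 1.14 times its lowest, the smallest ratio among the members named.

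The members with the most negative control jaw difference were Rpl26, Rpl30 and Rps27a. Rpl26 was at -0.95, on 5.70 against 11.96 FPKM. Rpl30, a large subunit protein, had 315, 501, 379 and 493 FPKM and was at -0.67. Rps27a, made as a fusion with ubiquitin, had 373, 579, 468 and 533 FPKM and was at -0.63. For Rpl30 and Rps27a both lower molar values lay above both upper molar values.

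In mutants the members lay near 0 between the jaws on the deposited scale, while most genes were higher in the upper molar. The median difference was 0.07, beside 0.27 for all genes, and it was -0.27 to -0.21 under the 3 rescalings. Relative to the median of all genes it was -0.20, which became -0.079 with a pseudocount of 5 and 0.022 with no level minimum. Of the members, 50 lay above 0, where 79.7% of all genes did, and 19 lay above the median of all genes. By the fold rule 2 members were higher, where 3.2% of all genes were, and 0 were lower, where 0.418% were.

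These 2 members were Rpl26 at 1.30 and Rps14 at 1.01, but under the 3 rescalings Rps14 was at 0.69, 0.66 and 0.73 and Rpl26 fell short once, at 0.98 with the upper quartile. Rpl6 followed at 0.64. At the other end stood Rps26, a protein at the exit of the messenger RNA, with 639, 858, 680.0 and 966 FPKM and a mutant jaw difference of -0.51. Rpsa was at -0.46. Rps25, a small subunit protein needed for translation from some internal entry sites, had 591, 905, 684 and 917 FPKM and was at -0.42. In all 3 of these genes both lower molar values lay above both upper molar values.

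Across both genotypes 0 members were higher and 0 were lower in upper molars by the fold rule, beside 0.133% and 0.0285% of all genes. Relative to the median of all genes, 52 of 76 members were below it in upper molars of both genotypes and 1 was above it in both, where 26.9% of all genes were on each side. The count of 52 was 57 with a pseudocount of 0.1, 42 with 5, 56 to 57 under the 3 rescalings and 33 of 80 with no level minimum. As deposited, 26 of 76 members were lower in upper molars of both genotypes and 3 were higher in both. Of all 10535 genes, 1474 were lower in both and 3263 higher in both.

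The subunits had similar median differences. In upper molars the median genotype difference was 0.10 for the 45 large subunit and 0.13 for the 31 small subunit members. In lower molars it was -0.32 and -0.26 on the deposited scale. The jaw difference was -0.40 and -0.34 in controls, and 0.08 and 0.04 in mutants. The gaps between the subunit medians, at most 0.06, were smaller than the spread among members of the same subunit. Other measures were less alike. The large over small ratio of sums was 1.59 in control lower and 1.399 in mutant lower molar. Above the median of all genes in both jaws were 21 of 45 large subunit members (46.7%) and 21 of 31 small subunit members (67.7%), beside 32.4% of all genes.

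The stalk proteins did not share 1 course. Rplp2 had 379, 559.7, 476 and 404 FPKM, with a genotype difference of 0.33 in upper molars and -0.47 in lower molars. Rplp1 had 0.35 and -0.65, while Rplp0, which anchors pairs of the other two, had 0.22 and 0.19. The ordering of the mutant lower molar library differed accordingly, as it was highest for Rplp0 and lowest for Rplp1.

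Rpl5 and Rpl11, which with the 5S RNA form the particle that can hold back Mdm2, also differed in lower molars. Rpl5 had 193, 261, 206 and 174 FPKM, with genotype differences of 0.09 in upper and -0.58 in lower molars. Rpl11 had 539, 708, 594 and 702 FPKM, with differences of 0.14 and -0.01. Rps6, the substrate of S6 kinase and a readout of growth signalling, had 197, 257, 217 and 244 FPKM, with differences of 0.14 and -0.07. For Rps6 and Rpl11 both lower molar values lay above both upper molar values.

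Several members cause visible phenotypes when mutated in mice. Rpl38, the gene of the Tail-short mouse with its skeletal patterning defects, had 561, 588, 507 and 496 FPKM, with genotype differences of -0.14 and -0.24. Rpl24, the gene of the Belly spot and tail mouse, had 523, 691, 557 and 554 FPKM, with differences of 0.09 and -0.32. Rps19, a gene of human Diamond-Blackfan anaemia, had 357, 417, 383 and 357 FPKM, with differences of 0.10 and -0.22. None of these 3 passed the fold rule in either jaw, and Rpl38 differed from the other two in being lower in the mutant upper molar.

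Rps20, which with Rps19 darkens mouse skin when mutated, had 881, 1136, 1009 and 1157 FPKM, with differences of 0.20 and 0.03. Rps7, whose mutation shortens the tail, had 136, 158, 146 and 150.2 FPKM, with differences of 0.10 and -0.07. The highest value was 1.31 times the lowest for Rps20 and 1.16 times for Rps7 as deposited. Under the 3 rescalings their lower molar differences were 0.45 to 0.54 and 0.35 to 0.44.

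For 9 members the tables list more than 1 transcript. The 857-base entry of Rps24 held 92.6%, 92.2%, 92.6% and 93.5% of the gene, and the 519-base entry of Rpl30 held 89.1%, 93.3%, 92.3% and 93.7%. The 285-base entry of Rpl38 held 56.4%, 48.9%, 51.7% and 45.3%. The longer entry of Rps27a held 5.93%, 9.93%, 3.79% and 13.2%, so it was higher in both lower molar libraries. These splits are estimates by the authors' software among overlapping transcripts and have no error here.

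Genes that work with the ribosome were set beside the members, and their fold rule counts are given on the deposited scale only. The mitochondrial ribosomal proteins, which translate the messages of the mitochondrial genome, were measured for all 75 genes listed. Their median genotype difference was 0.02 in upper molars and -0.45 in lower molars, and their jaw difference was -0.30 in controls and 0.12 in mutants. By the fold rule 0 were higher in either jaw, 2 were lower in upper and 1 was lower in lower molars, beside 3.27% and 9.42% of all genes. Mrpl52, their most abundant gene, had 82.9, 115, 99.2 and 94.9 FPKM. Control lower molar was its highest library and control upper molar its lowest, as in Rps23.

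Elongation and initiation factors lay lower in the mutant than the ribosomal proteins did. Their 35 genes had a median genotype difference of -0.23 in upper molars and -0.65 in lower molars. The fold rule counted 0 as higher, 1 as lower in upper and 6 as lower in lower molars, where 3.27% and 9.42% of all genes were lower. Eef1a1, which brings aminoacyl-tRNA to the ribosome, had 1084, 1385, 1308 and 925 FPKM, with genotype differences of 0.27 and -0.58. Tpt1, a translationally controlled protein, had 271, 376, 299.6 and 339 FPKM, with differences of 0.14 and -0.15.

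The 40 ribosome biogenesis genes, which make and process ribosomal RNA, lay below the ribosomal proteins in both jaws. Their median genotype difference was -0.23 in upper molars and -0.80 in lower molars, beside 0.12 and -0.31 for the ribosomal proteins. The fold rule counted 2 as lower in upper and 11 as lower in lower molars, beside 3.27% and 9.42% of all genes, and 0 as higher in either. Gar1, a core protein of the particles that convert uridine to pseudouridine in ribosomal RNA, had 58.1, 25.8, 15.0 and 10.2 FPKM. Rrs1, which helps to assemble the large subunit, had 6.55, 4.41, 2.16 and 1.51 FPKM. These were the biogenesis genes counted as lower in both jaws as deposited, with lower molar differences of -1.26 and -1.11. The rescalings add 0.42 to 0.52 to an abundant gene's lower molar difference, so the lower molar counts depend on the scale. Npm1, the abundant nucleolar protein nucleophosmin, had 502, 543, 408 and 411 FPKM, differences of -0.30 and -0.40.

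The p53 pathway, which senses free ribosomal proteins, had 12 of 15 genes measured. Its median genotype difference was -0.28 in upper molars and -0.58 in lower molars, and the fold rule counted 2 as lower in upper and 3 as lower in lower molars, beside 3.27% and 9.42% of all genes. Cdkn1a, the p53 target that stops the cell cycle, was lower in the mutant of both jaws, with 5.86, 7.91, 0.493 and 0.763 FPKM. Trp53, the gene of p53, had 72.4, 66.7, 49.3 and 28.0 FPKM, and Bax, a target that promotes cell death, had 11.8, 14.2, 13.9 and 9.44 FPKM. Rps27l lay in the same direction as Cdkn1a, with both mutant values under both control values. As deposited, 9 of the 12 p53 pathway genes, 14 of 76 members and 5238 of 10535 genes were lower in the mutant of both jaws. In 3 of the 12 the mutant was higher in upper and lower in lower molars. A link to p53 was not tested.

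Growth signalling genes upstream of the ribosome, 16 in all, had a median genotype difference of -0.24 in upper molars and -0.54 in lower molars. The fold rule counted 0 in upper molars and 4 as lower in lower molars, beside 9.42% of all genes. Transcripts that host small nucleolar RNAs begin with pyrimidine runs like the ribosomal protein messages, and 8 of 9 were measured. Their median genotype difference was -0.11 and -0.34, and their jaw difference was -0.63 in controls and -0.28 in mutants. Gas5 had 32.3, 50.1, 38.7 and 57.3 FPKM and Snhg1 had 57.0, 96.7, 53.9 and 74.7 FPKM, in each case with both lower molar values above both upper molar values.

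Close relatives of the members that the name rule leaves out were 6 genes with a median genotype difference of 0.10 in upper molars and -0.48 in lower molars. Fau, a fusion that yields a small subunit protein, had 287, 363, 327 and 328 FPKM. Its highest library was control lower molar and its lowest control upper molar.

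The other 147 genes that averaged 100 FPKM or more were set beside the members too, a set chosen after the values were seen. The median of their mean FPKM was 168, beside 484 for the members, so they are less abundant. Their median genotype difference was -0.09 in upper molars and -0.62 in lower molars, beside 0.12 and -0.31 for the members. Of these genes 36 were lower in the mutant lower molar by the fold rule on the deposited scale, where 1 of 76 members and 9.42% of all genes were. Their median jaw difference was -0.14 in controls and 0.32 in mutants, beside -0.35 and 0.07. The members' median difference thus lay above that of these genes in both genotype comparisons and below it in both jaw comparisons. Over the main values and all alternatives, the rescalings included, the members' median exceeded that of these genes by 0.20 to 0.23 in upper molars and 0.29 to 0.34 in lower molars. For the jaws the same difference was -0.23 to -0.21 in controls and -0.28 to -0.23 in mutants. With 1 library per group these differences were not tested.

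**Figure D4:**
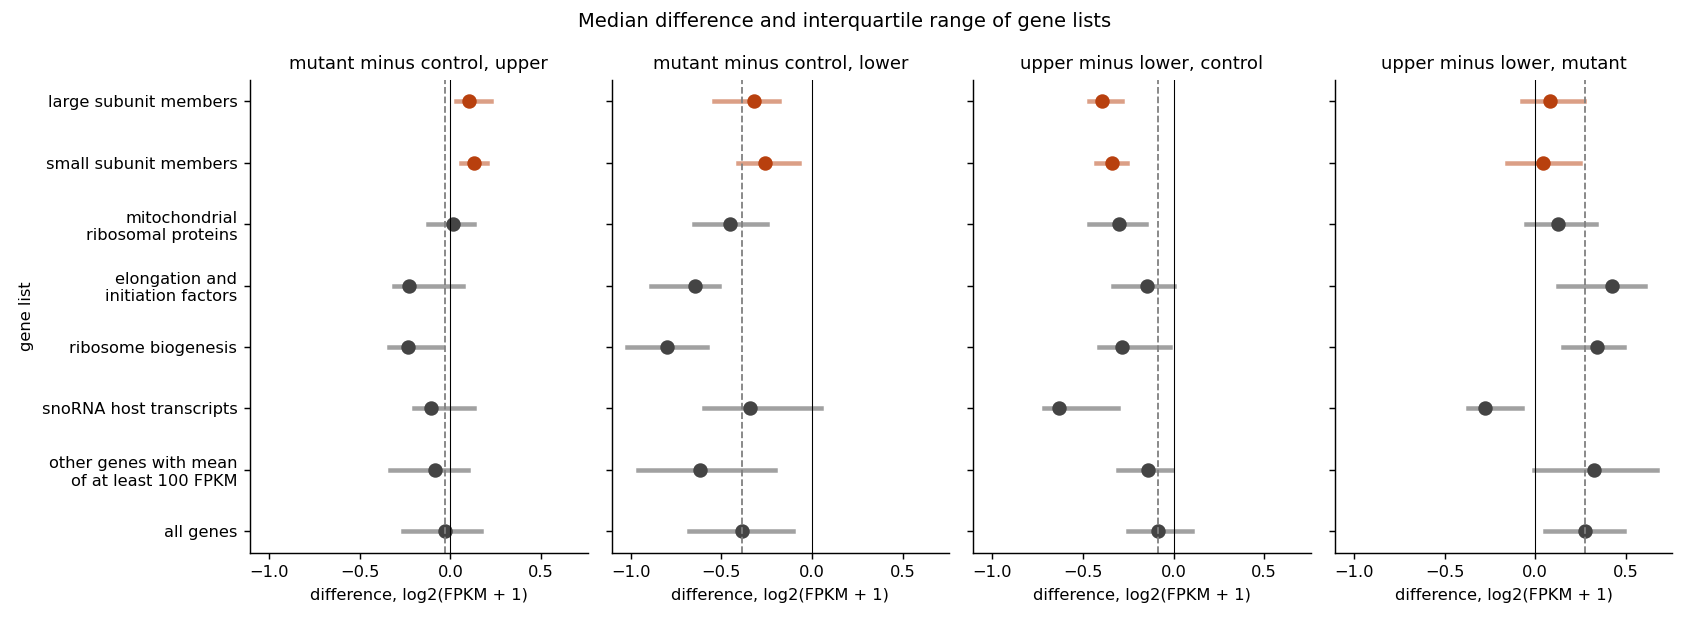
Median difference on the log2(FPKM + 1) scale of the large and small subunit genes and of the neighbouring gene lists in the 4 comparisons, with bars for the middle 50% of each list and a dashed line at the median of all genes. In the genotype comparison of lower molars the subunits lie at -0.32 and -0.26, the elongation and initiation factors at -0.65 and the biogenesis genes at -0.80.

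Marker lists of other cell types moved with the groups. The 10 epithelial markers summed to 26.9, 42.9, 48.7 and 67.1 FPKM, which is the order of the members' share of FPKM except that control lower and mutant upper molar changed places. Macrophage markers summed to 22.7, 31.3, 32.9 and 39.1 FPKM, in that same order, and 10 dental mesenchyme markers to 648, 538, 520.2 and 379.8 FPKM, in the reverse order. The dental mesenchyme markers did not all follow their sum. Of the 9 above the level minimum, 5 were lower in the mutant of both jaws as deposited. Pax9 was higher in both, with 45.7, 46.3, 68.1 and 66.1 FPKM. In the mutant, 2 were higher in upper and lower in lower molars, and 1 was the reverse. Erythroid markers summed to 919.8, 1184, 631 and 811 FPKM, endothelial markers to 69.9, 65.2, 55.8 and 53.05 FPKM, neuron and glia markers to 13.4, 7.79, 21.7 and 9.05 FPKM and skeletal muscle markers to 5.30, 7.03, 4.33 and 5.25 FPKM. In each of these lists 0 genes were listed at 0 in all libraries. In pooled tissue, fewer cells of a type and less RNA per cell cannot be told apart, and the part of cell makeup or of depth in the members' differences was not tested.

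Ribosomal protein genes have many processed pseudogenes, near copies without introns that can take or share reads. Of the 50-base windows of the GENCODE transcript matched to each member, a median of 44.5% occurred exactly in an annotated pseudogene. Windows were matched on either strand in build GRCm38, and the range was 0% to 85.6%, with Rpl3 highest. For some members that transcript was longer than the measured entry, as for Rps20 (3706 against 502 bases) and Rplp2 (964 against 441 bases). Their shares, 7.22% and 3.17%, thus also describe bases outside the measured entry. In 35 of 76 members more than 50% of windows were shared, and Rpl7a shared windows with 121 pseudogenes. The low members did not stand at 1 end, as the share was 71.3% for Rpl26, 37.9% for Rpl34, 5.65% for Rps15a and 5.19% for Rpl22.

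The shared portion of a member's matched transcript, which was not always the measured one, told little of its values. In 4 sets of 19 members by rising share, median FPKM was 393, 532, 402 and 589, and the median lower molar genotype difference was -0.27, -0.30, -0.22 and -0.32 as deposited. Across the 76 members Spearman's rho of the share with mean FPKM was 0.11, and with the genotype difference it was 0.10 in upper and -0.06 in lower molars, as a description. Transcript length had a stronger relation with level, with a rho of -0.47 between length and mean FPKM. The sources used here do not say how the authors' software placed reads that match several copies, so the level of any single member with shared windows is uncertain.

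**Figure D5:**
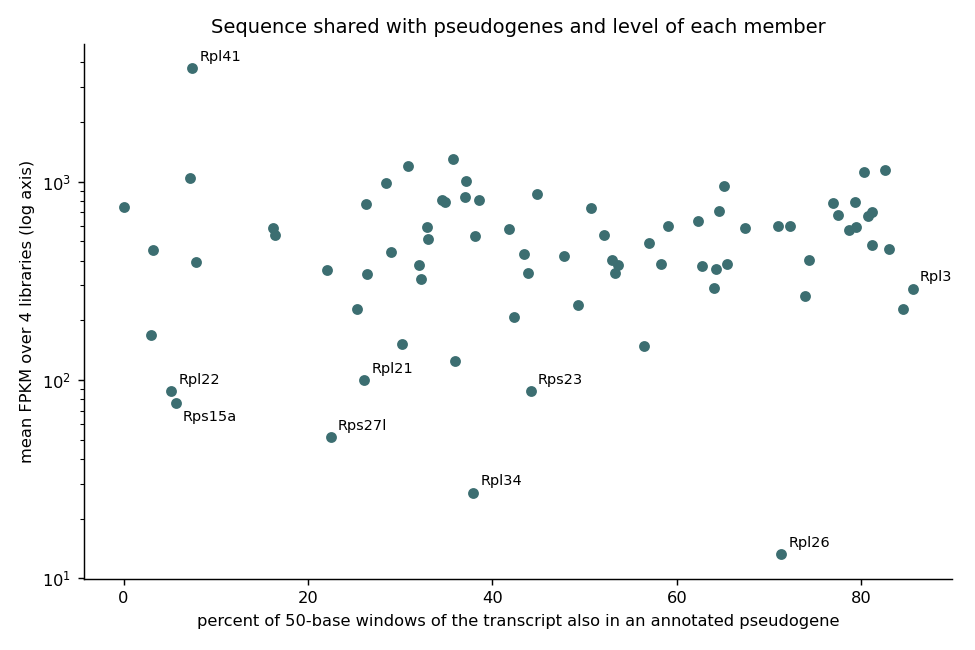
Percent of 50-base windows of each member's matched GENCODE transcript found in an annotated pseudogene (horizontal) against mean FPKM on a log axis (vertical) for the 76 analysed members. Members above 100 FPKM spread from 0% to 85.6%, and Rpl26 and Rpl34 lie lowest, at 71.3% and 37.9%.

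Promoters were compared because members that vary together can share letters near the start. In the 300 bases from 250 before to 50 after the annotated start, CCGGAAG or its reverse complement CTTCCGG, the core bound by GABP and other Ets factors, occurred in 24 of 56 members (42.9%) and 9.93% of all genes. GGGCGG or CCGCCC, the core of the Sp1 box, occurred in 62.5% of members and 38.2% of all genes. AAGATGGC or GCCATCTT, the core of YY1 sites, occurred in 7.14% and 3.19%, and TATAAA or TTTATA in 10.7% and 15.7%. The searched motifs do not contain each other, though matches could overlap. A match describes letters only.

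The Ets core is shown in the 100 bases before the start of 3 members of different level and subunit, again from RefSeq for build GRCm38.p6, with the core in capitals. Rps6 is on the minus strand at chr4:86857368-86857467, Rps25 on the plus strand at chr9:44407614-44407713 and Rpl41 on the minus strand at chr10:128549169-128549268.
Rps6: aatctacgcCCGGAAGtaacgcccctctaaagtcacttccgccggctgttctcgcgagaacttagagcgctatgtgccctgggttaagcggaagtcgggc
Rps25: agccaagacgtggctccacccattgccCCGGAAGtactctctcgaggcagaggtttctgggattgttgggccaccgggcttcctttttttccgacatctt
Rpl41: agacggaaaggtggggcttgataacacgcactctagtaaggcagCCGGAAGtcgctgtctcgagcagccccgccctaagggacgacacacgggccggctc
The differences of members hardly varied with these letters. Members with the core had a median genotype difference of 0.11 in upper molars and -0.27 in lower molars, and those without it 0.10 and -0.32. Members with a pyrimidine run at the start had 0.09 and -0.30, and those without it 0.10 and -0.32, with the lower molar values as deposited.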

How the data were processed

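RNA was measured in 4 libraries, 1 for each genotype and jaw. Per the labels, RNA came from laser-captured mesenchyme through a column kit and NuGEN Ovation RNA-Seq v2 amplification, which is not stated to mark strand. Bowtie 0.12.7 and TopHat 1.4.1 placed reads on mm9, per the submitters' processing notes. Per the file headers, the authors deposited FPKM, coverage and estimate status of 28107 RefSeq transcript entries in Cufflinks format. The sources used here give no Cufflinks version. Coverage was a fixed multiple of FPKM within a library, from 0.812 to 1.09.

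FPKM was summed per gene. Genes with a failed estimate (66) and small RNA names (718) were left out, and a mean of at least 1 FPKM was required. Values were converted to log2(FPKM + 1), which understates changes of low genes. With 1 library per group no test was made, and limma 3.58.1 (R 4.3.3) over all 4 libraries, tested on simulated data, served as a check. Python 3.11.15 was used otherwise. Shared windows used GENCODE M21 transcripts for GRCm38, in which all 76 analysed members matched by accession, though not always in length. Promoters used RefSeq (60 of 81 members matched). The tables' mm9 coordinates were not converted.

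Named are the 5 most and 5 least abundant members, the 3 most extreme each way per comparison, any passing in both jaws or genotypes, members with roles or closing-l names, and per list the most abundant genes and those passing in both jaws. Others, such as Bax, Rps24 and Rpl7a, were chosen after their values were seen. Values of some single genes that the rule would name are not reported here. Members and lists were chosen with earlier results of these data known.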

Additional observations from a re-analysis of the deposited data

Results flagged for a closer look

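On the deposited scale the members' genotype difference differed between the jaws. The median member was higher in the mutant upper molar and lower in the mutant lower molar, which put the upper median 0.43 above the lower one. Seen across jaws, the median upper minus lower difference was lower in controls than in mutants, at -0.42 for control minus mutant. The median of all genes was also lower in lower than in upper molars, at -0.39 against -0.03, and under the 3 rescalings the gap between jaws fell to 0.012, 0.019 and 0.016 and the gap between genotypes to -0.0070, -0.010 and -0.0078. Both differences therefore rest on the scale of the libraries. Neither difference was tested.

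Among single members, the genotype difference in upper molars exceeded that in lower molars by at least 1 for Rpl26 at 2.25, Rpl6 at 1.102, Rplp1 at 1.004 and Rpl13 at 1.004. These 4 of 76 members stand beside 5.58% of all genes. Under the 3 rescalings Rpl26 stayed past 1, at 1.86, while Rpl6 was at 0.69 and Rplp1 and Rpl13 were each at 0.59. That 1 member stands beside 1.58% to 1.59% of all genes. Each value rests on 4 single libraries and was not tested. For Rpl26 the high value came from the mutant upper molar library, and for Rpl6 the low value came from the mutant lower molar library.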

How the results depend on the processing

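Of 226 recomputed summary values, 193 stayed within the set tolerance (0.1 for medians, 1.5 times for counts, 1.1 times for sums), 24 moved and 9 reversed. With a pseudocount of 5 the relative lower molar genotype median was -0.085, the relative mutant jaw median -0.079 and 1 member was higher in the mutant jaw comparison, and with 0.1, 1 member was lower in the control jaw comparison. With no level minimum, over 80 members, the relative medians were -0.25 and 0.022. Rescaling by median of ratios, upper quartile and common total gave lower molar genotype medians of 0.11, 0.21 and 0.18 with 0 members lower, and mutant jaw medians of -0.25, -0.27 and -0.21 with 1, 0 and 1 members higher. The upper quartile also gave an upper molar genotype median of 0.22, and the common total a control jaw median of -0.22. Summed FPKM for control lower and mutant lower molar then became 44588 and 47331, 43705 and 49544, and 43154 and 47965, so the mutant was above the control in lower molars.

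Without 9 members that have an extra copy in the tables, Rpl34 among them, 0 members were lower in lower molars. Without 15 members under 500 bases the summed FPKM was 26607, 34748, 29283 and 27888. Without Rpl26, an alternative chosen after seeing the data, 0 members were higher in upper molars and 1 in the mutant jaw comparison. Keeping failed estimates was also chosen afterwards and moved no summary value. Of 420 recomputed values of single members, 7 fell under the fold rule and 413 did not change side. Under the 3 rescalings 94 of the 420 changed sign, 55 of them in the lower molar genotype and 37 in the mutant jaw comparison. The 7 values that fell under the fold rule kept their sign. Under the 3 rescalings they were Rpl34 in lower molars (-0.75, -0.66 and -0.69) and Rps14 in the mutant jaw comparison (0.69, 0.66 and 0.73). The last was Rpl26 in the mutant jaw comparison under the upper quartile (0.98).

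In limma on the deposited scale, with genotype and jaw as terms, 0 of 76 members had an adjusted p under 0.05 for genotype, the lowest being 0.0591. An unadjusted p under 0.05 for genotype was found for 3 members (Rpl26, Rpl34 and Rps27l), beside 17% of all genes. For jaw the counts were 0 and 0, beside 5.45% of all genes unadjusted. Over all genes, 679 passed for genotype and 98 for jaw after adjustment. This fit has 1 residual degree of freedom and assumes equal genotype effects in the jaws. No paired analysis was possible because each group has 1 library and the labels give no replicate numbers. Depth limits Rpl26 most, with a read depth of 5.96 per base in control upper molar.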
